A study of Mus musculus with 6 samples.

Results

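Bone morphogenetic proteins (BMPs) are secreted ligands that bind paired type I and type II receptors on the cell surface, and the receptors phosphorylate Smad proteins that enter the nucleus and switch on target genes such as the Id family. Secreted antagonists bind the ligands outside the cell, and decoy receptors dampen the signal at the membrane. In embryonic mouse skin this pathway is known for its part in the spacing of hair placodes and in the growth and differentiation of epidermis. The genes described here are 3 ligands (Bmp2, Bmp4 and Bmp7), the type I receptor gene Bmpr1a, 3 inhibitors (Bambi, Sostdc1 and Fst) and 3 target genes (Id1, Id2 and Id3). They were chosen by symbol, as every probe set that the platform annotation assigned to exactly 1 of these 10 genes. The table names 18194 genes in all through probe sets with 1 symbol. The 10 genes had 21 of its 45101 probe sets, and 20 of the 21 passed a filter on low signal.

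Skin was taken at embryonic day 16.5 from 3 mouse embryos mutant for Tcfap2c and from 3 control embryos, and the RNA of each was measured on its own Affymetrix array. Tcfap2c, now named Tfap2c, encodes the transcription factor AP-2 gamma. The alleles, the strain, any Cre driver and the litters are not given in the sources used here, and the description field of the control samples also mentions the mutation, so groups rest on titles and source names. The p-values set the difference between the groups against the spread of the samples within each group, which number 3 in each.

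Several facts of the whole data set touch the results. Mutant sample 1 stood apart, with a mean correlation of 0.94 to the other arrays, against 0.961 to 0.97 for each of the other arrays. A list of 8 uterus and decidua markers summed to a signal of 73142 in mutant sample 1, 3878 and 4269 in mutant samples 2 and 3, and 3806 to 4176 in control samples. A list of 6 leukocyte markers summed to 12348 in mutant sample 1, 6333 and 7801 in mutant samples 2 and 3, and 7178 to 7653 in control samples. Keratinocyte markers were present in every sample, with a sum over 7 genes of 123027 to 180366 in mutant and 134397 to 168687 in control samples. None of the markers was listed at 0. Xist, the RNA that coats the inactive X, had signals (1427262_at) of 10838 in mutant sample 1, 5.35 and 33.2 in mutant samples 2 and 3, and 6479, 6599 and 1.97 in control samples 1, 2 and 3. Eif2s3y, a Y-linked gene (1417210_at), read 4.86 in mutant sample 1 and 1915 and 1552 in mutant samples 2 and 3. In control samples 1, 2 and 3 it read 40.6, 9.36 and 1620. Mutant sample 1 and control samples 1 and 2 thus read as female and the others as male, though the sample titles give no sex. The 3 Tfap2c probe sets overlapped between groups, and since the altered part of the gene is not stated they check no label. Results are given with and without mutant sample 1.

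With all 6 samples, 0 of the 10 members passed an adjusted p of 0.05 in limma, where 0.00444% of the 22518 probe sets tested did. At an unadjusted p under 0.05 the count was 0 of 20 member probe sets, against 3.42% of all probe sets tested. Groups without overlap were found for 0 of the 20, against 8.33% of all probe sets tested. Without mutant sample 1, Bmp2 fell and Bambi rose, 2 of the 10 members, against 0.173% of all probe sets tested (0.111% higher and 0.0622% lower). Both calls rest on mutant samples 2 and 3 alone. Xist signal was low in both of these and in control sample 3, and high in control samples 1 and 2. Both mutant samples left thus read as male, while control samples 1 and 2 read as female and control sample 3 as male. Group is therefore partly confounded with Xist signal and with sex in that analysis. None of the other 8 genes passed in either analysis.

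**Figure D1:**
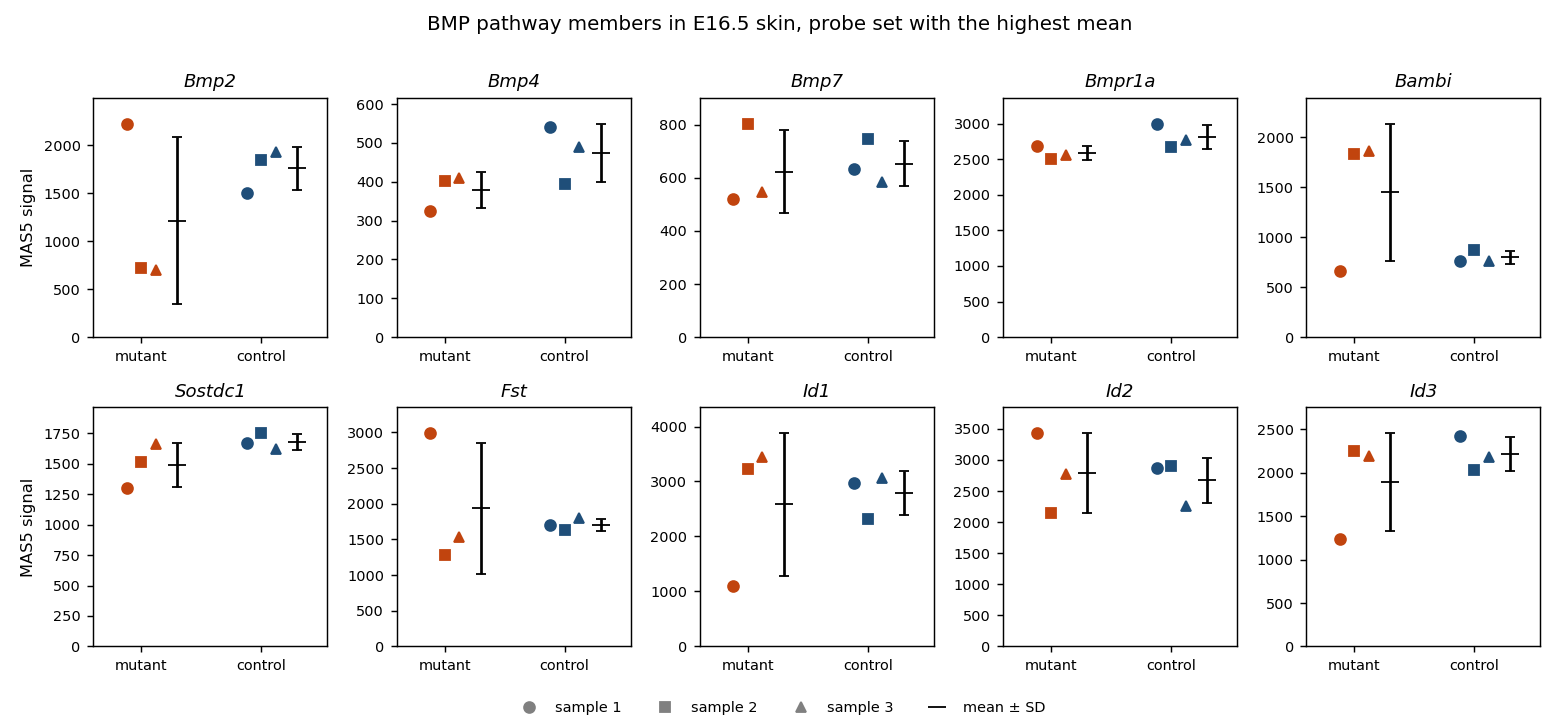
MAS5 signal on a linear axis from 0, for the probe set with the highest mean of each of the 10 genes, with mutant samples on the left and control samples on the right of each panel; marker shapes give the sample number and the bars give mean ± SD (n = 3 each). Mutant samples 2 and 3 lie below the control samples for Bmp2 (719 and 704) and above them for Bambi (1833 and 1860), and mutant sample 1 lies on the other side of the control samples in both panels.

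Of the 3 ligands, Bmp2 differed between mutant samples 2 and 3 and the control samples, and mutant sample 1 differed the other way. Bmp2 is made in the epithelium of hair placodes in mouse skin. Its single probe set (1423635_at) gave signals of 2225, 719 and 704 in mutant samples 1, 2 and 3, against 1508, 1850 and 1930 in control samples 1, 2 and 3. Mutant samples 2 and 3 thus lay below every control sample, and mutant sample 1 above them all. With all 6 samples the log2 difference was -0.73 (SE 0.39, 95% interval -1.61 to 0.14, limma adjusted p = 0.9999). Without mutant sample 1 Bmp2 fell by 1.27 on the log2 scale (SE 0.14, 95% interval -1.59 to -0.95, limma adjusted p = 0.0136), which is 2.42-fold lower. Ranked by p in that analysis, it stood at place 9 of 22518 probe sets. In bulk skin, fewer cells of a type and less RNA per cell cannot be told apart.

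The call for Bmp2 without mutant sample 1 was lost without the mean-variance trend (limma adjusted p = 0.172) and with the Xist signal as a covariate (limma adjusted p = 0.0663), where the log2 difference was -1.42. Within the 3 samples of low Xist signal, 2 mutant and 1 control, the log2 difference of Bmp2 was -1.41, and within the 3 of high Xist signal, 1 mutant and 2 control, it was 0.41. Mutant sample 1 was the only mutant of high Xist signal, so the split repeats its contrast with mutant samples 2 and 3. These splits hold 1 sample on one side, cannot separate Xist signal from mutant sample 1, and have no test. A list of 8 hair placode markers summed to 8461, 11089 and 9039 in mutant samples 1, 2 and 3, against 14202, 12630 and 14499 in control samples. Ptch1, the hedgehog receptor gene, made up 55.6% to 66.1% of this sum. The sum of all 8 was lower in each mutant sample than in any control sample, and without Ptch1 the groups overlapped, with 4827 in mutant sample 2 against 4801 in control sample 2. Of the 8 genes, Shh, Lhx2 and Ptch1 had groups that did not overlap, and the groups of the other 5 overlapped. Of all 22518 probe sets tested with all 6 samples, 8.33% had groups that did not overlap. The part of these genes in the Bmp2 result was not tested. Shh, the hedgehog ligand made in the same placode epithelium and the one with the largest difference of the 8, had signals of 647, 649 and 585 in mutant samples, against 1219, 1237 and 1444 in control samples. Mutant sample 1, the array with the high uterus and decidua sum, was low for Shh and high for Bmp2. The tissue source of these readings was not tested. Shh differed by -1.02 with all 6 samples (limma adjusted p = 0.205) and by -1.04 without mutant sample 1 (limma adjusted p = 0.0268). Lhx2, Ptch1, Krt17 and Sox9 differed by -0.64, -0.50, -0.83 and -0.34, and by -0.64, -0.48, -0.44 and -0.31 without mutant sample 1. The log2 differences of the placode genes Edar, Lef1 and Dkk4 were -0.01, -0.11 and -0.11, and 0.09, 0.09 and 0.06 without mutant sample 1.

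Bmp4, a ligand made largely in the dermis under the placodes, gave 324, 401 and 409 in mutant samples 1, 2 and 3, against 540, 393 and 491 in control samples. The groups overlapped through control sample 2. The log2 difference was -0.30 (SE 0.18, 95% interval -0.72 to 0.11), and without mutant sample 1 it was -0.20 (95% interval -0.61 to 0.20).

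Bmp7, a ligand of epithelium and mesenchyme that can pair with other BMPs, had 3 probe sets. The one with the highest mean (1435479_at) gave 519, 803 and 548 in mutant samples 1, 2 and 3, against 631, 746 and 582 in control samples. Its log2 difference was -0.08 (95% interval -0.53 to 0.36). The probe set 1418910_at gave 266, 565 and 379 in mutant samples, against 551, 517 and 559 in control samples, a log2 difference of -0.46 (95% interval -1.02 to 0.09). In the third, 1432410_a_at, mutant sample 1 read 13.7, mutant samples 2 and 3 read 259 and 276, and control samples read 245, 248 and 356. Its log2 difference of -1.03 with all 6 samples became -0.06 without mutant sample 1. For Bmp7, mutant sample 1 was the lowest of the 6 in all 3 probe sets.

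Bmpr1a encodes a type I BMP receptor that is present in epidermis and follicles. Its probe set with the highest mean (1425492_at) gave 2688, 2497 and 2562 in mutant samples 1, 2 and 3, against 2997, 2672 and 2772 in control samples. The groups overlapped by the narrow margin between mutant sample 1 and control sample 2. The log2 difference was -0.12 (SE 0.12, 95% interval -0.39 to 0.15), and without mutant sample 1 it was -0.15 (95% interval -0.40 to 0.10). Of the other probe sets, 1425491_at, 1425493_at and 1425494_s_at differed by -0.13, -0.22 and -0.12, and 1451729_at by 0.16. The sixth, 1445413_at, did not pass the filter. It read 2.41, 23.7 and 19.8 in mutant samples, against 4.07, 6.82 and 5.78 in control samples, all below the constant of 24.5 added before the log. The 5 tested probe sets had intervals that reached from -0.62 at the lowest to 0.75 at the highest.

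**Figure D2:**
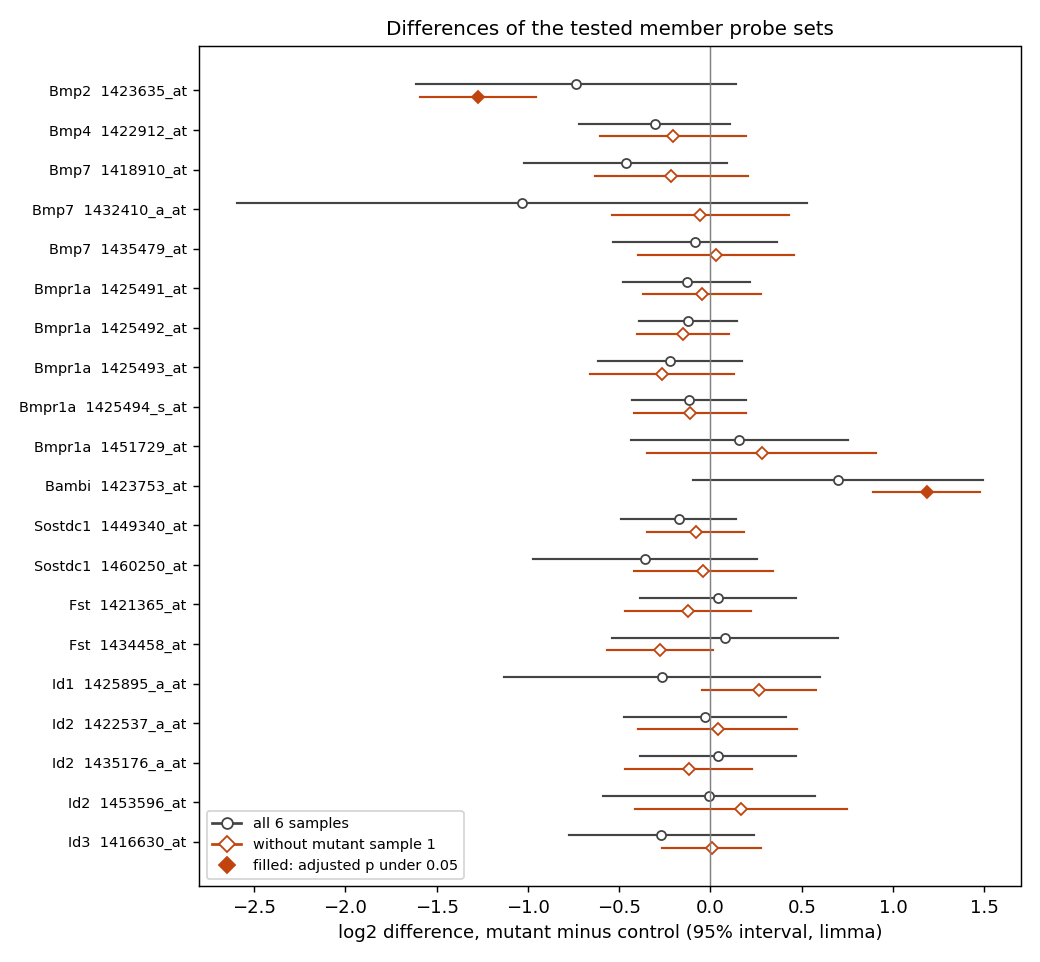
Log2 difference, mutant minus control, of the 20 tested probe sets with 95% intervals from limma, for all 6 samples (circles) and without mutant sample 1 (diamonds); filled symbols passed an adjusted p of 0.05. The 2 filled symbols are Bmp2 at -1.27 and Bambi at 1.18, both without mutant sample 1, and every interval from all 6 samples crosses 0.

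Of the inhibitors, Bambi was the member with the smallest unadjusted p over all 6 samples (limma, 0.0769). It encodes a membrane protein that resembles a type I receptor but lacks the kinase domain and dampens signalling of the BMP and TGF-beta family. Its probe set (1423753_at) gave 659, 1833 and 1860 in mutant samples 1, 2 and 3, against 761, 875 and 765 in control samples. Mutant samples 2 and 3 lay above every control sample, and mutant sample 1 below them all. The log2 difference was 0.70 (SE 0.35, 95% interval -0.09 to 1.49, limma adjusted p = 0.9999). Without mutant sample 1 Bambi rose by 1.18 (SE 0.13, 95% interval 0.89 to 1.48, limma adjusted p = 0.0128), which is 2.27-fold higher.

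The call for Bambi without mutant sample 1 was lost when control sample 1 was left out as well (limma adjusted p = 0.0582), without the mean-variance trend (limma adjusted p = 0.157) and with the Xist covariate (limma adjusted p = 0.0818). Its log2 difference was 1.15, 1.18 and 1.25 in these settings. Within the 3 samples of low Xist signal the difference was 1.24, and within the 3 of high Xist signal it was -0.30, without a test. The high group again held mutant sample 1 as its only mutant, so this split cannot separate Xist signal from that sample. Bmp2 and Bambi thus differed in opposite directions in mutant samples 2 and 3.

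Sostdc1, a secreted antagonist of BMPs that also acts on Wnt signalling, gave 1299, 1517 and 1658 in mutant samples 1, 2 and 3, against 1667, 1751 and 1617 in control samples (1449340_at). Mutant sample 3 lay within the control range. The log2 difference was -0.17 (95% interval -0.49 to 0.14) and without mutant sample 1 it was -0.08 (95% interval -0.35 to 0.19). Its second probe set, 1460250_at, gave 360, 724 and 717 in mutant samples, against 668, 666 and 913 in control samples. Mutant sample 1 was the lowest of the 6 in both.

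Fst encodes follistatin, which binds activins and also BMPs. Its brighter probe set (1434458_at) gave 2991, 1286 and 1536 in mutant samples 1, 2 and 3, against 1698, 1630 and 1798 in control samples. Mutant sample 1 was above all the others, while mutant samples 2 and 3 were below every control sample. The log2 difference was 0.08 (95% interval -0.54 to 0.70) and without mutant sample 1 it was -0.28 (95% interval -0.57 to 0.01, limma adjusted p = 0.711). The other probe set, 1421365_at, gave 1395, 891 and 1071 in mutant samples, against 1178, 1118 and 923 in control samples, where mutant samples 2 and 3 spanned the lowest control sample. Fst thus shared with Bmp2 a highest reading in mutant sample 1.

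The Id genes encode helix-loop-helix proteins without a DNA-binding region, which hold back basic helix-loop-helix transcription factors and are direct targets of BMP-activated Smads. RefSeq promoter windows (GRCm38.p6) are reported for 4 of the 10 members, Bmp4, Bmpr1a, Id2 and Id3. The selection left out windows of a whole chromosome after the motif search, so a window of another member may have been searched and dropped. No window is reported for the other members, Bambi and Bmp2 among them. This does not show that RefSeq lacks a promoter entry for those genes, and they may hold either motif. The windows of the target genes Id3 and Id2 are shown because each holds a motif tied to this study, that of AP-2 factors or that of Smad1 and Smad5. Each line gives the 250 bases before the gene start, at chr4:136143572-136143821 on the plus strand for Id3 and chr12:25096093-25096342 on the minus strand for Id2. Capitals mark the AP-2 motif GCCNNNGGC in Id3 and the Smad motif GGCGCC in Id2; both motifs read the same on either strand.
Id3: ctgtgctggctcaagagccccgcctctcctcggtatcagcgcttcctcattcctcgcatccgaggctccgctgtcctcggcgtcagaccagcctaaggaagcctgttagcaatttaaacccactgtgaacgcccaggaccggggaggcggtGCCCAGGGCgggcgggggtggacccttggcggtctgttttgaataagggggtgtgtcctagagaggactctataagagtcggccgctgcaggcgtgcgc
Id2: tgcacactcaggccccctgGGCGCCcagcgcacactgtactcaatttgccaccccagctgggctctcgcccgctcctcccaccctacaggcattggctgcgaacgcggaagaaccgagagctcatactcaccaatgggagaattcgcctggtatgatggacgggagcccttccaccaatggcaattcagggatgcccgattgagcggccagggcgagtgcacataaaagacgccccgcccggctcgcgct
The AP-2 motif begins 99 bases before the start of Id3 and was in 13.7% of the 32851 promoter windows of this length that were searched. The Smad motif begins 231 bases before the start of Id2 and was in 9.59% of them. The Bmpr1a window also holds the Smad motif, and the Bmp4 window holds neither. A match in letters is not a bound site.

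Id1 gave 1091, 3221 and 3438 in mutant samples 1, 2 and 3, against 2966, 2325 and 3071 in control samples (1425895_a_at). Mutant sample 1 lay far below the other samples and mutant samples 2 and 3 above every control sample. The log2 difference of Id1 was -0.27 (SE 0.38, 95% interval -1.13 to 0.60) with all 6 samples and 0.26 (SE 0.14, 95% interval -0.05 to 0.58, limma adjusted p = 0.754) without mutant sample 1. Id3, whose promoter window holds the AP-2 motif, gave 1239, 2246 and 2189 in mutant samples 1, 2 and 3, against 2424, 2036 and 2179 in control samples. Apart from mutant sample 1 the readings of Id3 were interleaved. Its log2 difference was -0.27 (95% interval -0.78 to 0.24), and without mutant sample 1 it was 0.0063 (95% interval -0.26 to 0.28).

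Id2 had 3 probe sets. The brightest (1435176_a_at) gave 3433, 2153 and 2779 in mutant samples 1, 2 and 3, against 2870, 2901 and 2254 in control samples, a log2 difference of 0.04 (95% interval -0.38 to 0.47). The others differed by -0.03 (1422537_a_at) and -0.0073 (1453596_at). Mutant sample 1 was the highest of the 6 in the brightest probe set of Id2 and the lowest in 1453596_at.

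Over the members, 15 of 20 tested probe sets had a negative and 5 a positive difference. Of all 22518 probe sets tested, 12513 were negative, and probe sets of the same gene are not independent. By the brightest probe set of each gene 7 were negative and 3 positive, with a median of -0.15, beside a median of -0.02 over all probe sets tested. Without mutant sample 1 there were 6 negative and 4 positive genes, and the medians were -0.10 and -0.01. In that analysis 11716 of all 22518 probe sets tested were negative. Of the 20 probe sets, mutant sample 1 was the lowest of the 6 samples in 11 and the highest in 4, so it was at an extreme in 15. Over all probe sets tested it was at an extreme in 55.6%. Once it was left out, 5 of the 20 had groups that did not overlap, 2 with mutant above control (Bambi and Id1) and 3 below (Bmp2, 1 probe set of Fst and 1 of Bmpr1a), where 22.8% of all probe sets tested did not overlap (10.8% higher and 12% lower).

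**Figure D3:**
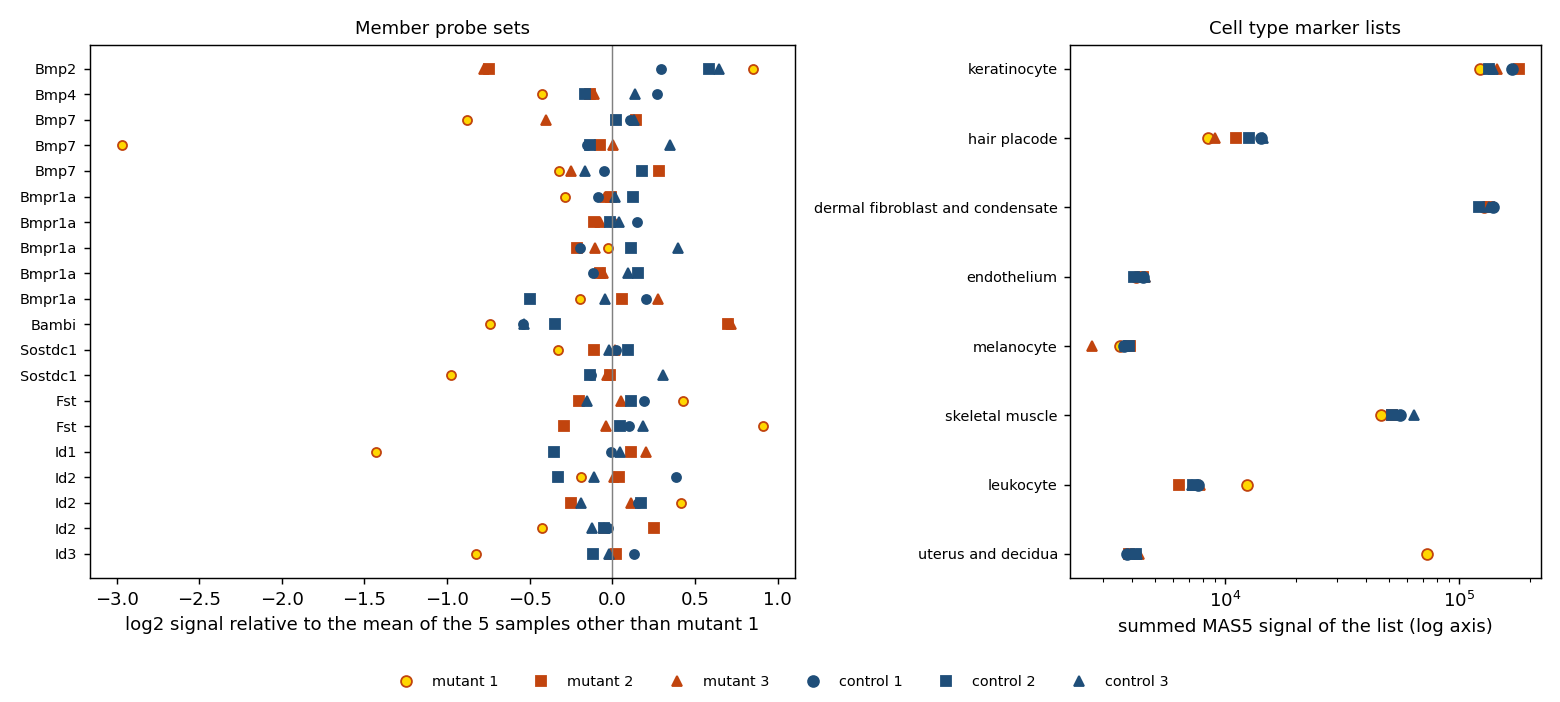
Left, log2 signal of each tested member probe set in every sample, relative to the mean of the 5 samples other than mutant sample 1; right, summed MAS5 signal of each cell type marker list on a log axis. Mutant samples are in red and control samples in blue, with mutant sample 1 filled in yellow; it lies farthest below for a Bmp7 probe set (-2.97) and Id1 (-1.43) and farthest above for Fst (0.91) and Bmp2 (0.85), and its uterus and decidua sum is 73142.

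Mutant sample 1 also stood apart in some of the marker lists. In the uterus and decidua list, 6 of 8 genes were highest in that sample, among them the progesterone receptor gene Pgr with 2719 in mutant sample 1, 91.6 and 116 in mutant samples 2 and 3, and 115 to 128 in control samples. In the keratinocyte list, 5 of 7 genes were lowest in mutant sample 1, and Krt1 and Krt10, the suprabasal keratins, lay within the range of the others. Krt5, the keratin of basal keratinocytes, read 11821 in mutant sample 1, 22130 and 16961 in mutant samples 2 and 3, and 18352 to 21249 in control samples. In the leukocyte list 5 of 6 genes were highest in mutant sample 1. The part of these cell types in the member values was not tested. The sums of the dermal fibroblast list were 128189 to 134140 in mutant and 122030 to 139684 in control samples, and those of the endothelium list 4133 to 4529 in mutant and 4072 to 4546 in control samples. Melanocyte markers summed to 2685 to 3915 in mutant and 3696 to 3873 in control samples, and skeletal muscle markers to 46111 to 52963 in mutant and 51689 to 64196 in control samples. The sums of these lists overlapped between groups, as did those of the hair placode list without Ptch1.

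Beyond the members, 38 of 56 other genes of the pathway were tested, and 0 passed an adjusted p of 0.05 in limma, with all 6 samples or without mutant sample 1. At an unadjusted p under 0.05 there were also 0 with all 6 samples, against 3.42% of all probe sets tested. There were 12 positive and 26 negative differences with a median of -0.06, beside -0.02 over all probe sets tested. Of all 22518 probe sets tested, 12513 were negative. The groups did not overlap for 1 of the 38, below the 8.33% of all probe sets tested. That gene was Bmp1, a protease that cleaves the BMP antagonist chordin and is not itself a ligand. It gave 580, 524 and 543 in mutant samples, against 599, 745 and 669 in control samples, a log2 difference of -0.27.

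Of 6 other ligands, 2 were positive and 4 negative. Inhbb, which encodes an activin subunit, gave 1949, 492 and 324 in mutant samples 1, 2 and 3, against 605, 544 and 505 in control samples. Like Fst, it was highest in mutant sample 1, and mutant samples 2 and 3 were below every control sample. Inhba, another activin subunit gene, differed by 0.21 and the ligand gene Bmp6 by -0.11. Of 10 other receptors and co-receptors, 1 was positive and 9 negative. Rgmb, a co-receptor gene, differed by -0.21, the type I receptor gene Bmpr1b by -0.22 and the type II receptor gene Bmpr2 by -0.11. Their probe sets did not all share a sign, with 4 of 6 for Rgmb, 1 of 2 for Bmpr1b and 1 of 2 for Bmpr2 in the direction given.

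Of 7 extracellular antagonists and modulators, 3 were positive and 4 negative, and Fstl1 and Fstl3, which encode follistatin-related secreted proteins, differed by -0.17 and 0.16. Of 7 Smads and their regulators, 2 were positive and 5 negative. The positive ones were the inhibitory Smads, which are themselves induced by the pathway. Smad6 gave 160, 198 and 209 in mutant samples 1, 2 and 3, against 103, 104 and 187 in control samples, a log2 difference of 0.49 (SE 0.27). Smad7 differed by 0.27, and Smurf2, a ubiquitin ligase gene, by -0.09. Among 8 other target genes 4 were positive and 4 negative. Dlx5, a homeobox gene, gave 333, 516 and 677 in mutant samples 1, 2 and 3, against 362, 341 and 393 in control samples, a log2 difference of 0.40. Without mutant sample 1 it was 0.66 (limma adjusted p = 0.377), the smallest adjusted p of the 38 genes. The homeobox genes Msx1 and Msx2 differed by 0.46 and 0.35, with overlapping groups.

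The genes whose pattern over the 6 samples was most like that of Bambi were found by the root mean square difference of log2 signals, each centred on its own mean, over 11588 other genes. Upk1b, a tetraspanin gene known from bladder urothelium, was nearest, with a difference of 0.10. It gave 491, 1382 and 1616 in mutant samples 1, 2 and 3, against 516, 680 and 546 in control samples. Sp6, a transcription factor gene known from teeth and hair follicles, followed at 0.17, with 583, 1545 and 1292 in mutant samples, against 694, 619 and 726 in control samples. Pla2g4e, a gene of the cytosolic phospholipase family, lay at 0.18, Tsc22d3, a glucocorticoid-induced gene, at 0.19 and Mab21l4 at 0.21. In all 5, mutant samples 2 and 3 lay above every other sample. The measure ranks genes on the same 6 arrays as Bambi, and so it describes these arrays only.

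**Figure D4:**
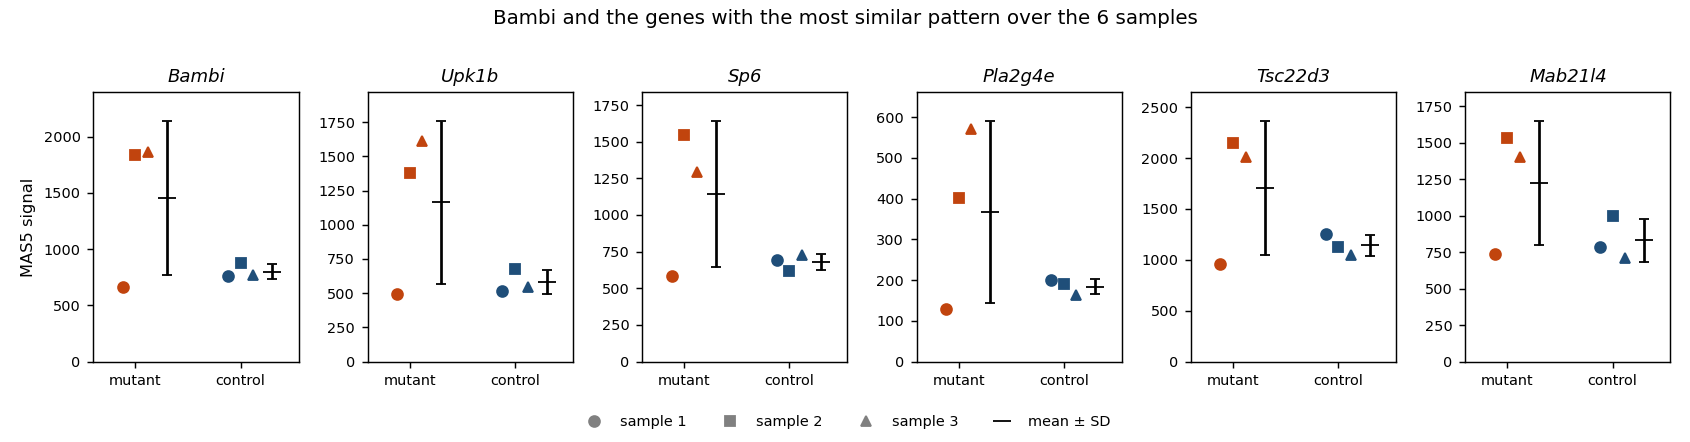
MAS5 signal from 0 for Bambi and the 5 genes nearest to it in pattern, mutant samples on the left and control samples on the right of each panel, with mean ± SD (n = 3 each). In every panel mutant samples 2 and 3 lie above the control samples, while mutant sample 1 does not, as for Upk1b with 491 in mutant sample 1 and 516 to 680 in control samples.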

How the data were processed

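The authors deposited MAS5 signal intensity per probe set, unlogged, per the submitters' processing notes; the MAS5 version is not given in the sources used here. Each column had a mean of 500 after trimming 2% at each end, and medians of 110.4 to 131.5. Precision is limited by the number of arrays.

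Signals were taken as log2(signal + 24.5), the constant being the 20th percentile of all values, so differences of dim probe sets are understated. The 64 control probe sets were left out, and 22518 probe sets with a mean log2 above the median (a signal of about 114.5) were tested. The platform annotation gave 34958 probe sets 1 symbol, 932 several and 9211 none. Each gene is represented by its tested probe set with the highest mean. Two-sided p-values came from limma 3.58.1 (R 4.3.3; lmFit, then eBayes with a trend) and were adjusted by Benjamini-Hochberg across all tested probe sets. The fit was tested on simulated data, and no list was tested as a set.

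The members, lists and naming rule were chosen with earlier results of these data known. The rule named all 10 members, up to 3 genes of each pathway list by p, and the 5 genes nearest in pattern to the member with the smallest p. Shh, Pgr and Krt5 were picked from the marker lists, and the Xist split at a signal of 1000 was set, after values were seen. Alternatives were other pseudocounts, filters, normalizations and variance models, array weights, a replicate block, an Xist covariate, averaging the probe sets of a gene, and each sample left out. Settings combined with leaving out mutant sample 1 were added after seeing the data. Plots used matplotlib 3.10.9.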

Additional observations from a re-analysis of the deposited data

How the results depend on the processing

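Of 180 values of the 10 members over 18 alternatives, 167 kept their direction and their side of the threshold. Bmp2 and Bambi passed the threshold in 2 of these, without mutant sample 1 and with array weights (Bmp2 -1.17, limma adjusted p = 0.0461; Bambi 1.09, limma adjusted p = 0.0416), so the count of members was 2 there and 0 otherwise; array weights were 0.257, 0.56 and 3.13 for mutant samples 1, 2 and 3, so the weighted mutant level lay mostly with mutant sample 3. Over all 18, Bmp2 ranged from -1.27 to -0.46 with adjusted p from 0.0136 to 0.99999, and Bambi from 0.45 to 1.18 with adjusted p from 0.0128 to 0.99999. Leaving out 1 sample gave 0 to 2 members and 1 to 39 of all probe sets past the threshold, where all 6 samples gave 1 (39 when mutant sample 1 and 3 when control sample 2 was left out); array weights gave 106. The count of other pathway genes was 0 in every alternative. The median over the members was -0.27 when all tested probe sets of a gene were averaged, against -0.15. A replicate block for the sample number gave 8 probe sets and 0 members past the threshold. Deviations from the group means correlated at -0.05, -0.07 and 0.11 between samples of the same number. With 3 samples in each group and mutant sample 1 apart from the rest, these values cannot settle whether the numbers pair the samples.

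The sign changed in 9 values of 5 genes, none past the threshold. Without mutant sample 1 these were Bmp7 (0.029), Fst (-0.28), Id1 (0.26), Id2 (-0.12) and Id3 (0.0063). With each sample left out in turn, Bmp7 ranged from -0.27 to 0.029, Fst from -0.28 to 0.32, Id1 from -0.55 to 0.26, Id2 from -0.12 to 0.21 and Id3 from -0.42 to 0.0063. With array weights they were Fst (-0.12) and Id1 (0.20), without control sample 2 Bmp7 (0.011), and without control sample 3 Id2 (-0.074). With mutant sample 1 left out, the count of members was 1 when control sample 1 was left out as well, and 0 without the trend or with the Xist covariate. The count of all probe sets was then 15 to 39 with a control sample left out (15 without control sample 1 and 25 without control sample 3), 67 with median centring, 20 without a filter, 6 without the trend and 12 with the Xist covariate. The gap between the lowest control and the highest mutant sum of placode markers was 1541 and became -25.8 without Ptch1, a setting added after seeing the data. The causes were not tested.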
